A study of Mus musculus with 6 samples.

Results

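Small neutral amino acids such as alanine, serine, cysteine, glycine and glutamine cross cell membranes through a few sodium-dependent and exchange transporters, and 8 of these genes were followed in mouse cerebellum. They were taken by symbol: the ASC transporters Slc1a4, Slc1a5 and Slc7a10, the system A transporters Slc38a1 and Slc38a2, the system N transporters Slc38a3 and Slc38a5, and the glycine transporter Slc6a9. All 8 of 8 were found among 46983 genes counted, and all 8 passed the filter on low counts that left 16851 genes for testing. Cerebellum RNA came from 6 mice on a C57BL/6J background at postnatal day 60, 3 labelled Slc7a5-KO and 3 labelled WT, with 1 library per mouse. The animals labelled Slc7a5-KO were Tie2-Cre Slc7a5 fl/fl, and the animals labelled WT were Tie2-Cre Slc7a5 fl/+. Both groups thus carried the Tie2-Cre recombinase, which acts in endothelial and blood lineages, and the WT animals also carried a floxed Slc7a5 allele. The animals labelled WT are therefore not unmodified wild type, and whether their floxed allele was recombined was not tested. Neurons, astrocytes and oligodendrocytes, which give most of the RNA of whole cerebellum, lie outside the Tie2 lineage. Slc7a5 encodes LAT1, which brings large neutral amino acids across the blood-brain barrier, and the comparison asks how brain tissue differs when this route is removed from the vessels.

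As background, LAT1 is an exchanger that trades an amino acid inside the cell, often glutamine, for a large neutral one outside. The sodium-coupled A, N and ASC systems load cells with the small neutral amino acids that are used in such exchange. In brain the same transporters move glutamine between glia and neurons, and set the serine and glycine available at synapses, where D-serine and glycine are co-agonists of NMDA receptors. Several of these genes, among them Slc1a4, Slc1a5, Slc38a2 and Slc6a9, are known targets of ATF4, the transcription factor induced when amino acids are short.

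ATF4 binds with C/EBP partners to a composite element, and the promoters of the transporters were searched for the letters TGATGNAA on both strands. RefSeq windows on GRCm38.p6, which run from 250 bases before a gene's start to 50 after it, were matched for 5 of the 8 genes: Slc1a4, Slc7a10, Slc38a2, Slc38a5 and Slc6a9, the last with 3 windows. The Slc1a4 window was the only one of these 5 genes' windows with a match, and 4.51% of all 27025 genes with a window held one. Elements farther upstream or deeper in a gene lie outside these windows. A window without a match thus does not show that the gene lacks the element. Slc1a4 is shown with Slc38a2, a transporter known from cell culture to be induced by amino acid shortage. The first gene rose here and the second did not pass the test, and a role of the motif was not tested. The Slc1a4 window is chr11:20332664-20332963 and the Slc38a2 window is chr15:96699679-96699978, both on the minus strand and written 5′ to 3′. Capitals mark the match, which reads TTGCATCA on the gene's strand, so that TGATGNAA runs on the other strand. It lies at 20332710 to 20332717 and covers bases -4 to 4 around the start, where the first transcribed base is 1.
Slc1a4: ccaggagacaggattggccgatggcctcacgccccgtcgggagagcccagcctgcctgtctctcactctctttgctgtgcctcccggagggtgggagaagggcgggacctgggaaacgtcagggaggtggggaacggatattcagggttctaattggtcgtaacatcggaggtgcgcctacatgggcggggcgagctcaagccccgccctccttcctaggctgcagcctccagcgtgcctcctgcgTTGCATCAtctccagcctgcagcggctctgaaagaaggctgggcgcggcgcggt
Slc38a2: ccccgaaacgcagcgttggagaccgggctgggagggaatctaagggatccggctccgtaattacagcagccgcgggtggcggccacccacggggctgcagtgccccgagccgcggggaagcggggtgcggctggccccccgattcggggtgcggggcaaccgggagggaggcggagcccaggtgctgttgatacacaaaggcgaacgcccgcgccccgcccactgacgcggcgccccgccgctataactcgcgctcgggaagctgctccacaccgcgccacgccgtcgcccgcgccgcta

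The libraries labelled Slc7a5-KO held 13.4 to 31.1 M reads on genes (M, mega), and the WT libraries 27.7 to 34.2 M. Slc7a5-KO replicate 3 was the shallowest and stood apart on principal component 1, WT replicate 2 stood apart on component 2, and Slc7a5-KO replicate 2 had the most genes at very low counts. By Xist and Y-linked counts, WT replicate 2 and Slc7a5-KO replicates 1 and 3 read as female and the other libraries as male. Sex was thus not balanced between the groups. The targeted gene was not lower in its labelled group: Slc7a5 stood at 164, 59.4 and 118 CPM (TMM-scaled counts per M reads) in libraries labelled Slc7a5-KO and at 72.0, 66.3 and 43.2 CPM in WT (log2 fold change 0.91 ± 0.42, edgeR adjusted p = 0.84). Which exons were floxed is not stated in the labels, and cells outside the Tie2 lineage give most of the RNA. The share of Slc7a5 RNA that comes from each cell type was not measured, and the deletion itself was not tested here. Every direction given here follows the labels. All 10 Purkinje cell markers and all 10 granule neuron markers checked were detected. The 10 Purkinje cell markers summed to 3954 to 5845 CPM in libraries labelled Slc7a5-KO and 5659 to 6903 CPM in WT.

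Among the 8 transporters, Slc1a4 rose in mice labelled Slc7a5-KO, while no other member passed the test. That is 1 of 8 members past an edgeR adjusted p of 0.05, against 0.0475% of all genes tested, or 8 genes, every one of them higher. In 7 of 8 members the log2 fold change was above 0, against 50.3% of all genes, and the members' median was 0.16 against 0.0022 over all genes. Members were chosen with earlier results of these data known. Of 14 alternative fits, the sign turned in 5 for Slc38a2, 2 for Slc38a3 and 3 for Slc7a10, the member below 0. At an unadjusted p under 0.05 only Slc1a4 passed, against 6.22% of all genes. It was also the only member whose groups did not overlap in CPM, a pattern that 11.5% of all genes showed.

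**Figure D1:**
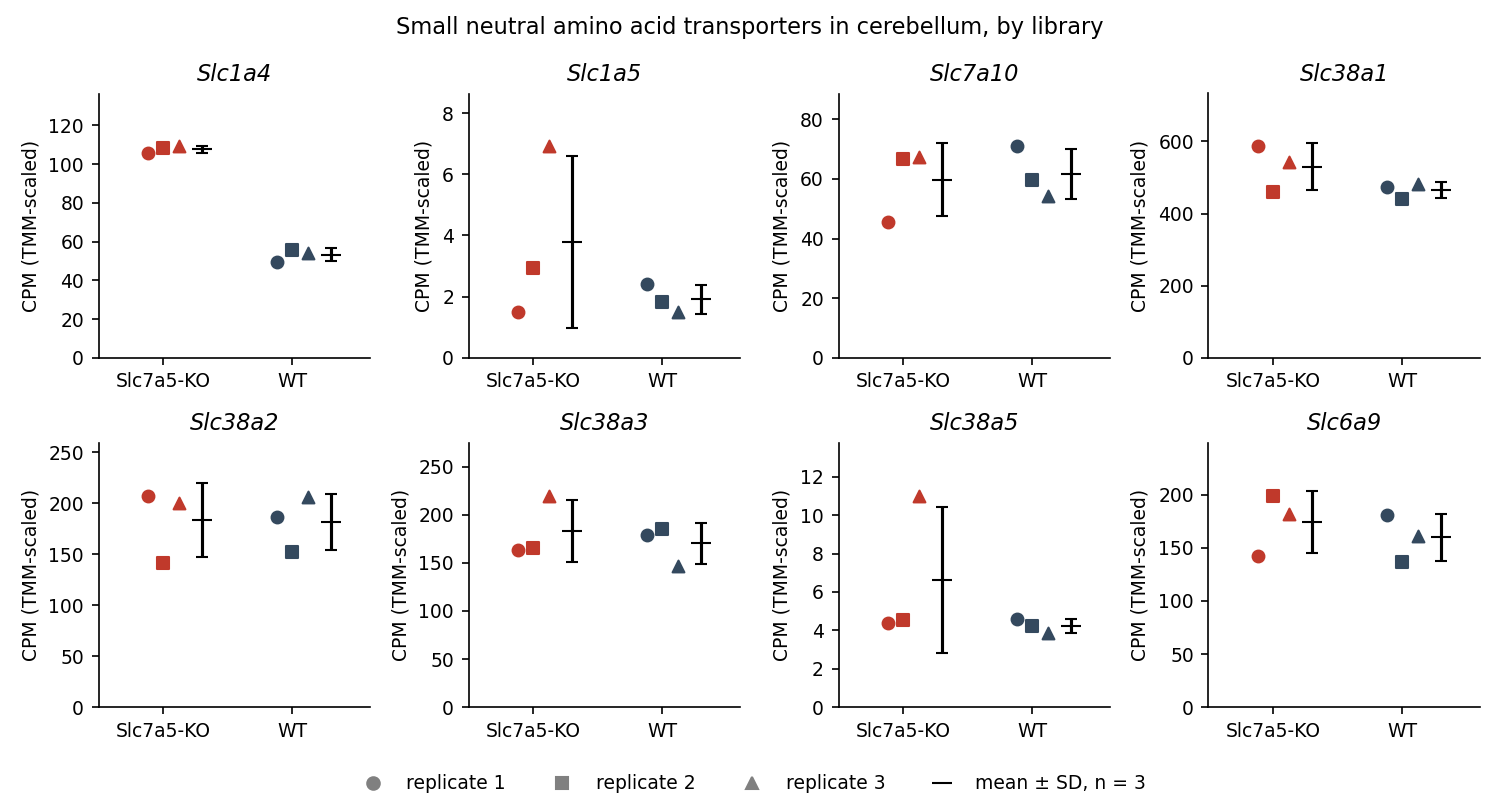
CPM of each transporter in every library (points, with replicates 1 to 3 as circle, square and triangle), with the mean and SD of 3 animals beside them. The 3 Slc1a4 values labelled Slc7a5-KO lie at 105 to 109 CPM and the WT values at 49.4 to 55.8 CPM, while the groups of every other gene overlap.

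Slc1a4 encodes ASCT1, a sodium-dependent exchanger of alanine, serine, cysteine and threonine that also carries D-serine, and recessive variants of the human gene cause a disorder with microcephaly and spasticity. The gene lies on GRCm38 chromosome 11 (20302180 to 20332713, minus strand, protein-coding). It had 105, 108 and 109 CPM in libraries labelled Slc7a5-KO, against 49.4, 55.8 and 54.3 CPM in WT, from 1484 to 3406 reads and 1501 to 1749 reads. Every library labelled Slc7a5-KO thus lay near 107 CPM, and the highest was 1.03 times the lowest. The fold change was 2.02 (95% interval 1.67 to 2.45, log2 1.02 ± 0.13 SE), with an edgeR adjusted p of 0.0029 and the second smallest p of all genes tested. In the authors' deposited table, 0.9% of 14561 genes with an adjusted p were under 0.05. There the shrunken log2 value of Slc1a4 was 0.92, with a DESeq2 Wald adjusted p of 2.9e-15, and the unshrunken value was 1.01. DESeq2, which called 0.358% of genes, also called Slc1a4, and the call held in each of 14 alternatives, with log2 values of 0.97 to 1.06 and adjusted p of 2.9e-10 to 0.035. Among the marker lists, only the 9 microglia and macrophage genes had sums that did not overlap between groups. These were 343 to 382 CPM in libraries labelled Slc7a5-KO and 266 to 338 CPM in WT, a narrow gap. Of single genes tested, 11.5% did not overlap. Purkinje cell markers leaned lower, though their sum overlapped between groups: 9 of 10 had a log2 fold change below 0 (median -0.41). Of these 10, 5 had an unadjusted edgeR p under 0.05, against 6.22% of all genes, and 3 had groups that did not overlap, against 11.5%. Of the 9 microglia and macrophage markers, 8 were above 0 (median 0.30), 4 had an unadjusted p under 0.05 and 3 had groups that did not overlap. Other lists leaned lower too, with 9 of 10 choroid plexus markers (median -0.70), 11 of 13 brainstem markers and 8 of 10 granule neuron markers below 0. The sum of each of these lists overlapped between groups. For choroid plexus it was 2412, 63.4 and 4916 CPM in libraries labelled Slc7a5-KO and 5289, 5794 and 2599 CPM in WT. Slc7a5-KO replicate 2 lay far below the rest. The brainstem Hox genes tested stood at 4.83 CPM or lower in every library. The 2 brainstem markers above 0 were Tph2 and Chat (log2 0.81 ± 0.74 and 0.07 ± 0.51). No Purkinje cell or microglia and macrophage marker was at 0 in all libraries or passed the adjusted threshold. The part of any of these cells in the Slc1a4 difference was not tested. In whole tissue a change in the number of cells of a type and a change in RNA per cell cannot be told apart, here or for any gene below.

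The genes nearest to Slc1a4 in pattern over the 6 libraries were found by the root mean square difference of centred log2 CPM among 14693 genes with a mean CPM of at least 1. Nearest was Shmt2, the mitochondrial serine hydroxymethyltransferase that turns serine into glycine, at a difference of 0.11. It was followed by Nmnat3, an enzyme of NAD synthesis, at 0.13, Cyb5r1, a cytochrome b5 reductase, at 0.15, Caly, a neuronal vesicle protein, at 0.16, and En1, a homeobox transcription factor of the midbrain and hindbrain, at 0.16. Choosing by likeness to a gene that separated the groups makes these genes separate them too, so this is a description only. Shmt2 and Caly passed the threshold (edgeR adjusted p of 0.0098 and 0.044), while Cyb5r1 (0.064), Nmnat3 (0.92) and En1 (0.69) did not. Nmnat3 was low, at 1.80, 1.98 and 2.06 CPM in libraries labelled Slc7a5-KO and 0.96, 1.12 and 0.83 CPM in WT. By the same measure the other transporters lay between 0.44 for Slc38a1, at place 1704 of 14693, and 0.68 for Slc1a5, at place 10910. Between them came Slc38a3 at place 3638, Slc6a9 at 3660, Slc38a5 at 4097, Slc38a2 at 6733 and Slc7a10 at 7869. None of these 5 nearest genes had the motif TGATGNAA in a RefSeq window, nor did Slc7a1, and sites outside those windows were not searched.

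Slc1a5 encodes ASCT2, the ASC exchanger that also carries glutamine and is prominent in dividing cells. It lies on chromosome 7 (16781340 to 16798274, plus strand). The gene was scarce here, with 48, 79 and 94 reads (1.49, 2.95 and 6.91 CPM) in libraries labelled Slc7a5-KO and 86, 51 and 41 reads (2.43, 1.84 and 1.48 CPM) in WT. Slc7a5-KO replicate 3 was high and the other 5 libraries were low, and the groups overlapped. The log2 fold change was 0.96 ± 0.56, with a 95% interval of -0.22 to 2.13 and an edgeR adjusted p of 0.86. Without Slc7a5-KO replicate 3 the log2 value was 0.21. The interval holds both 0 and the log2 value of Slc1a4, 1.02.

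Slc7a10 encodes Asc-1, a sodium-independent exchanger that pairs with the heavy chain Slc3a2 and moves small neutral amino acids including D-serine and glycine. It lies on chromosome 7 as well (35186385 to 35201114, plus strand). Its exons overlap those of Lrp3 on the other strand, so the stranded count was used here too. It had 45.6, 66.5 and 67.2 CPM in libraries labelled Slc7a5-KO, against 70.9, 59.6 and 54.3 CPM in WT. Slc7a5-KO replicate 1 was the lowest library and WT replicate 1 the highest, and the groups overlapped. Its log2 fold change was -0.05 ± 0.17 by edgeR (adjusted p = 0.99), and its 95% interval, -0.40 to 0.31, does not reach a 2-fold change either way. Its sign turned when replicate 1 of either group was left out, at 0.12 for Slc7a5-KO and 0.07 for WT.

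**Figure D2:**
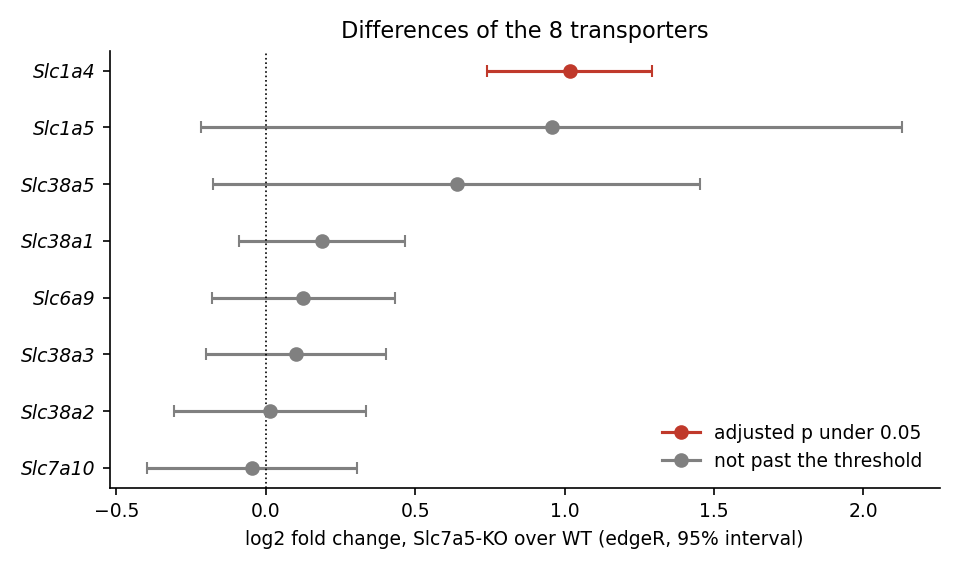
Log2 fold change of each transporter, Slc7a5-KO over WT, with its 95% interval from edgeR (3 libraries per group). The interval of Slc1a4 runs from 0.74 to 1.29, and the intervals of the other 7 genes include 0, with those of Slc1a5 and Slc38a5 the widest.

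The system A transporters take up alanine, glutamine and other small neutral amino acids with sodium, in neurons above all. Slc38a1, which encodes SNAT1, had 586, 459 and 544 CPM in libraries labelled Slc7a5-KO, against 473, 440 and 481 CPM in WT. The libraries labelled Slc7a5-KO held the highest values, in replicates 1 and 3, but replicate 2 lay within the WT range. By edgeR the log2 fold change was 0.19 ± 0.13 (95% interval -0.09 to 0.47, adjusted p = 0.91), and it was 0.11 without Slc7a5-KO replicate 1. Slc38a2, which encodes SNAT2, had 208, 142 and 201 CPM in libraries labelled Slc7a5-KO and 186, 152 and 206 CPM in WT. Here the groups covered nearly the same range, and the lowest library of each was replicate 2. By edgeR the log2 fold change was 0.01 ± 0.15 (95% interval -0.31 to 0.34, adjusted p = 1.00). On GRCm38 both genes lie on the minus strand of chromosome 15, Slc38a1 at 96571418 to 96642913 and Slc38a2 at 96687392 to 96699730.

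The system N transporters couple glutamine, histidine and asparagine to sodium and protons and can run in both directions. Slc38a3, which encodes SNAT3, is known for glutamine release from astrocytes. It had 163, 165 and 220.0 CPM in libraries labelled Slc7a5-KO, against 179, 186 and 146 CPM in WT (log2 0.10 ± 0.14, 95% interval -0.20 to 0.40, edgeR adjusted p = 0.97). Slc7a5-KO replicate 3 was above the others and the rest overlapped, and the log2 value was -0.05 without it and -0.0005 without WT replicate 3. Slc38a5, which encodes SNAT5, had 4.37, 4.52 and 11.03 CPM in libraries labelled Slc7a5-KO and 4.58, 4.22 and 3.84 CPM in WT. Slc7a5-KO replicate 3 was again the high library, with 150 reads, and the other 5 libraries agreed within 3.84 to 4.58 CPM. The log2 fold change of Slc38a5 was 0.64 ± 0.39, with a 95% interval of -0.18 to 1.45 (edgeR adjusted p = 0.86), and 0.08 without Slc7a5-KO replicate 3. Slc38a3 lies on chromosome 9 (107650634 to 107669530, minus strand) and Slc38a5 on chromosome X (8271133 to 8280179, plus strand).

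Slc1a5 and Slc38a5 shared their high library. In Slc7a5-KO replicate 3 Slc1a5 was 2.34 times and Slc38a5 2.41 times the highest of the other 5 libraries. This rule was chosen after the values were seen, and 1.39% of all genes tested reached 2 times the highest other value in that library, against 0.196% and 0.231% in Slc7a5-KO replicates 1 and 2 and 0.178%, 0.617% and 0.326% in WT replicates 1 to 3. Endothelial markers, which mark a cell type known for Slc38a5, summed over 11 genes to 461, 503 and 549 CPM in libraries labelled Slc7a5-KO and to 548, 521 and 523 CPM in WT. No endothelial marker was at 0 in all libraries, the list's median log2 fold change was 0.03, and its part in the spread of Slc38a5 and Slc1a5 was not tested.

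Slc6a9 encodes GlyT1, the glial transporter that clears glycine around glycinergic and NMDA receptor synapses. The gene lies on chromosome 4 (117834506 to 117875198, plus strand). Its exons overlap those of Ccdc24 and B4galt2 on the other strand, and reads on its own strand were counted. It had 142, 199 and 182 CPM in libraries labelled Slc7a5-KO, against 181, 137 and 161 CPM in WT. The groups overlapped, with the lowest library, WT replicate 2, close to Slc7a5-KO replicate 1. By edgeR the log2 fold change was 0.13 ± 0.15 (95% interval -0.18 to 0.43, adjusted p = 0.96). Leaving out Slc7a5-KO replicate 1 or 2 gave 0.25 or 0.0149, and leaving out WT replicate 1 or 2 gave 0.22 or 0.0297. Markers of brainstem and spinal neurons, where glycine is a main inhibitory transmitter, varied in the same libraries. None of those 15 genes passed, and their median log2 fold change was -0.93 over the 13 tested. They summed to 28.5, 64.2 and 42.4 CPM in libraries labelled Slc7a5-KO and to 58.3, 21.4 and 55.0 CPM in WT. This list holds no glycinergic gene. Slc6a2 and Tph2, of monoamine neurons, had its highest means, at 15.3 and 18.8 CPM in libraries labelled Slc7a5-KO and 15.9 and 10.7 CPM in WT. Its Hox genes tested stood at 4.83 CPM or lower in every library, and the median rests largely on them. The oligodendrocyte sum of 8 genes was 4278, 7340 and 5478 CPM in libraries labelled Slc7a5-KO and 6162, 4128 and 5591 CPM in WT. WT replicate 2 and Slc7a5-KO replicate 1 had the lowest values of Slc6a9, of the brainstem list and of the oligodendrocyte list, and Slc7a5-KO replicate 2 had the highest of all 3. WT replicate 2 and Slc7a5-KO replicate 1 read as female, and so did Slc7a5-KO replicate 3, with Slc6a9 at 182 CPM. Slc6a5, the neuronal glycine transporter, had 56.6, 134 and 60.6 CPM in libraries labelled Slc7a5-KO and 155, 40.6 and 92.9 CPM in WT. These lists and sex were set beside Slc6a9 after their values were seen, and their part in its spread was not tested. The 11 astrocyte and Bergmann glia markers, all detected, summed to 2809 to 3367 CPM in libraries labelled Slc7a5-KO and 3122 to 3650 CPM in WT.

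Levels of different genes were compared as TPM, transcripts per M, which divides counts by the joint length of a gene's annotated exons. The order over all 6 libraries was Slc38a3 (101 ± 15.9 TPM, SD), Slc6a9 (98.8 ± 17.2), Slc38a1 (88.0 ± 16.4), Slc7a10 (87.0 ± 15.0), Slc38a2 (63.1 ± 14.2) and Slc1a4 (62.4 ± 24.8), then Slc38a5 (7.36 ± 3.83) and Slc1a5 (2.07 ± 1.52). The means of the first 4 genes differ by less than their SD, and so do those of Slc38a2 and Slc1a4. A clear step separated Slc38a5 and Slc1a5 from the other 6, whose lowest single value was 36.6 TPM, against a highest of 15.0 TPM for Slc38a5. Slc1a4 averaged 84.8 TPM in libraries labelled Slc7a5-KO and 40.0 TPM in WT. It was above Slc38a2 in all 3 libraries labelled Slc7a5-KO and below it in all 3 WT libraries. The order and this crossing rest on the length used. With the longest transcript as length, Slc38a1 was above Slc38a3 in all 6 libraries, at 154 to 223 TPM against 128 to 179 TPM in libraries labelled Slc7a5-KO and 133 to 177 TPM against 119 to 154 TPM in WT. On that scale, Slc1a4 stood at 74.1, 67.2 and 71.1 TPM and Slc38a2 at 93.7, 56.4 and 84.0 TPM in libraries labelled Slc7a5-KO. The summed TPM of the 8 genes was 556, 505 and 604 in libraries labelled Slc7a5-KO and 543, 384 and 466 in WT, and the groups overlapped. Of that sum Slc1a4 held 16.1%, 15.8% and 14.1% in libraries labelled Slc7a5-KO, against 7.56%, 9.51% and 9.11% in WT.

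**Figure D3:**
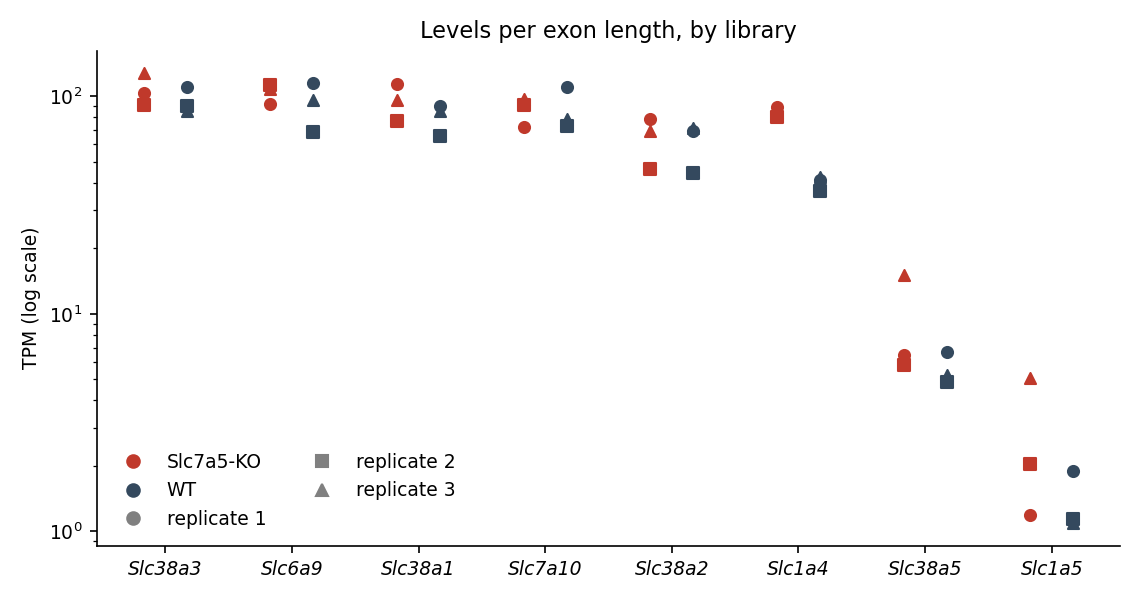
TPM of each transporter in every library on a log axis, ordered by mean level (red Slc7a5-KO, dark blue WT; replicates 1 to 3 as circle, square and triangle). Slc38a5 and Slc1a5 lie at 15.0 TPM or lower and the other 6 genes at 36.6 TPM or higher, and of these 6 Slc1a4 shows the groups apart.

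The closest relatives were then set against each other within each library, where library scaling cancels. The log2 ratio of Slc1a4 to Slc1a5 was 6.08, 5.16 and 3.97 in libraries labelled Slc7a5-KO and 4.31, 4.87 and 5.13 in WT, and the groups overlapped. Their difference was 0.30 ± 0.66 SE (2-sided exact permutation p = 0.7, adjusted p = 0.7 over the 3 ratios), and it was -0.20 without Slc7a5-KO replicate 1. The data therefore do not separate the response of Slc1a4 from that of Slc1a5. The log2 ratio of Slc38a2 to Slc38a1 was -1.50, -1.70 and -1.44 in libraries labelled Slc7a5-KO and -1.34, -1.53 and -1.23 in WT. Those groups overlapped too, with a difference of -0.18 ± 0.12 (2-sided exact permutation p = 0.3, adjusted p = 0.45). Leaving out Slc7a5-KO replicate 2 gave -0.10, and leaving out WT replicate 3 gave -0.105. For Slc38a5 to Slc38a3 the log2 ratio was -5.20, -5.17 and -4.31 in libraries labelled Slc7a5-KO and -5.27, -5.43 and -5.23 in WT. That ratio did not overlap between groups, by a narrow gap, and its difference was 0.42 ± 0.30 (2-sided exact permutation p = 0.1, the smallest that 3 against 3 allows, adjusted p = 0.3). It was 0.12 without Slc7a5-KO replicate 3.

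**Figure D4:**
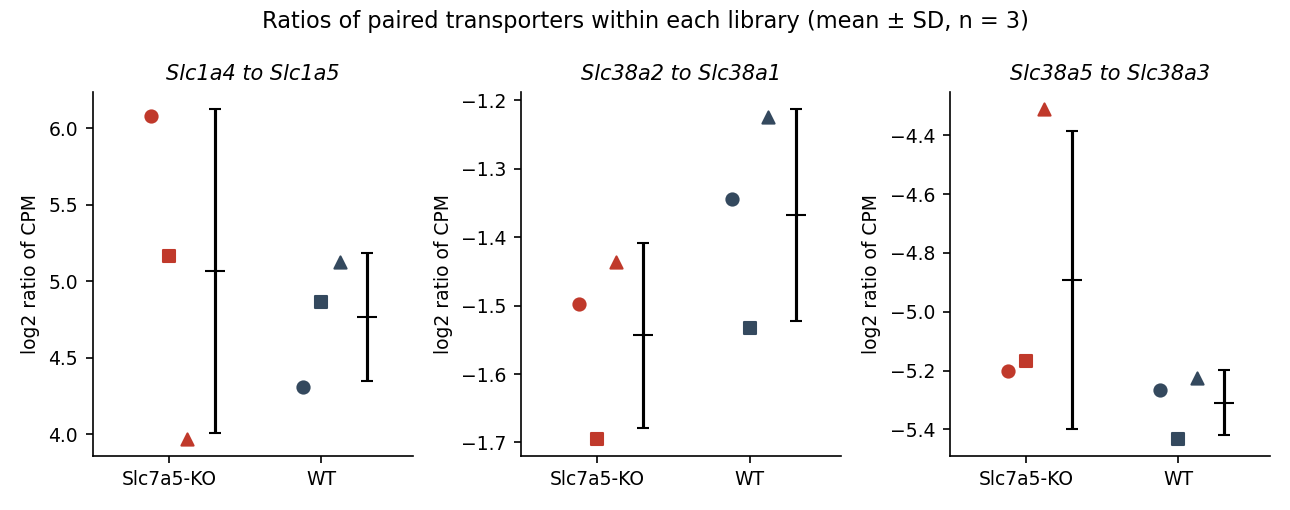
Log2 ratio of CPM between 2 related transporters within each library (replicates 1 to 3 as circle, square and triangle), with the mean and SD of 3 animals. Slc7a5-KO replicate 3 is the lowest point for Slc1a4 to Slc1a5 (3.97) and the highest for Slc38a5 to Slc38a3 (-4.31).

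Other genes that carry or use the same amino acids were counted by list. Of 12 other Slc38 and Slc1 genes, 10 were tested, none passed, and the median log2 fold change was 0.0012. The smallest p belonged to Slc38a7, a lysosomal glutamine exporter, at 47.9, 51.4 and 41.7 CPM in libraries labelled Slc7a5-KO and 33.7, 33.7 and 36.5 CPM in WT (log2 0.44 ± 0.16, edgeR adjusted p = 0.64). Next was Slc1a6, the glutamate transporter of Purkinje cells (log2 -0.39 ± 0.19, edgeR adjusted p = 0.81). Of 20 other transporters of neutral amino acids, glycine and proline, 15 were tested and none passed, with a median of -0.0062. Slc16a10, a carrier of aromatic amino acids, had -0.62 ± 0.29, and Slc3a2, the heavy chain of LAT1 and Asc-1, had 0.27 ± 0.14 (edgeR adjusted p of 0.80 and 0.83). Slc6a14, Slc6a18 and Slc36a3 of this list had no reads in any library.

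The 5 amino acid response transporters outside the family were all above 0, with a median log2 fold change of 0.91, and 1 of 5 passed. Slc7a1, the cationic amino acid transporter CAT1, rose to 97.2, 106 and 89.4 CPM in libraries labelled Slc7a5-KO, against 47.7, 38.0 and 54.1 CPM in WT (log2 1.07 ± 0.15, edgeR adjusted p = 0.0055). This list was assembled with earlier results of these data known, and it includes Slc7a5 and Slc3a2, so its direction is not independent evidence. Both of these genes are also in the list of other transporters of neutral amino acids, glycine and proline.

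Serine and glycine metabolism had 16 of 17 genes tested, 1 called higher and none lower, with a median of 0.05. Shmt2 rose, at 81.6, 74.2 and 66.5 CPM in libraries labelled Slc7a5-KO and 37.8, 39.5 and 37.4 CPM in WT (log2 0.96 ± 0.14). Glutamine and alanine metabolism had none of 12 genes called, with a median of 0.04. Its smallest p values belonged to Asns, asparagine synthetase (log2 0.71 ± 0.13, edgeR adjusted p = 0.064), and Gpt, an alanine aminotransferase (log2 -0.56 ± 0.28, edgeR adjusted p = 0.82). Glul, the glial glutamine synthetase that feeds the system N transporters, was chosen after its values were seen and had -0.12 ± 0.15 (edgeR adjusted p = 0.97).

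**Figure D5:**
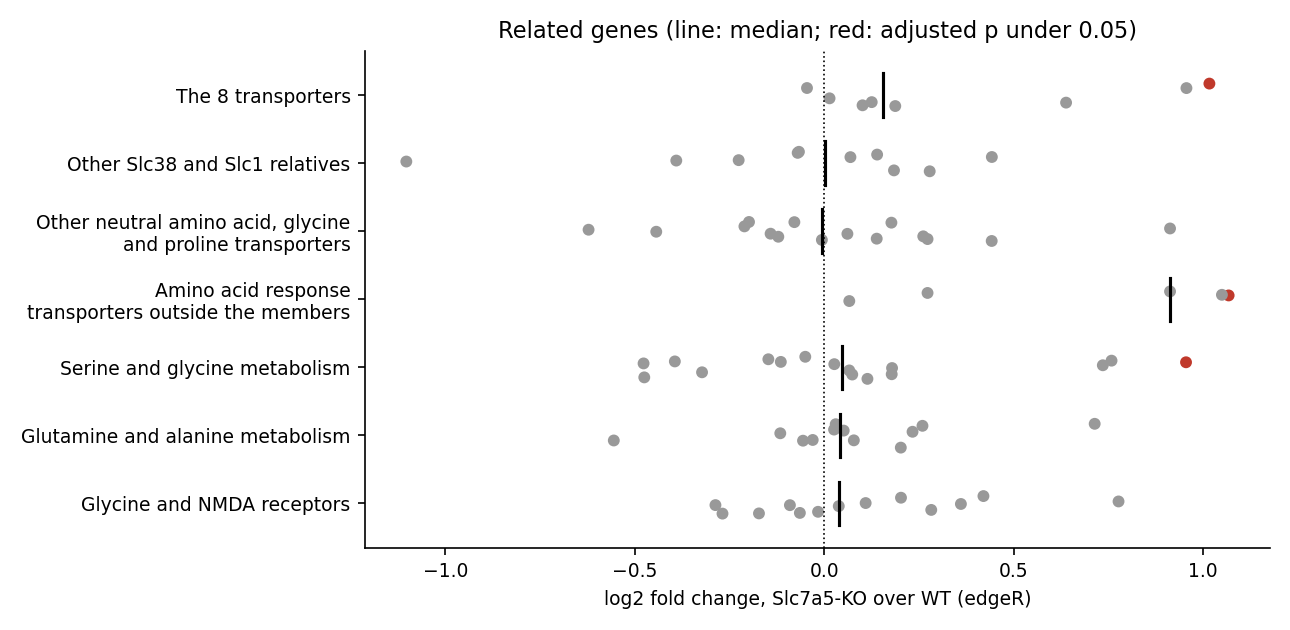
Log2 fold changes, Slc7a5-KO over WT, of the 8 transporters and of 6 lists of related genes (1 point per gene in each list, vertical line at the median, red for an edgeR adjusted p under 0.05). Slc7a5 and Slc3a2 are each in more than 1 list. Slc1a4, Slc7a1 and Shmt2 are the red points, and the medians of 5 of the 6 lists lie between -0.0062 and 0.05.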

How the data were processed

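Reads were aligned with STAR 2.5.4 to GRCm38 (mm10), per the submitters' processing notes; no annotation release is named in the labels. The authors deposited raw read counts per gene, 1 table per animal, for both strands and for each strand. The reverse-strand count held 94.8% to 95.8% of stranded gene reads and was used. Multimapping reads are listed as 0, and 19.5% to 22.2% of aligned reads fell on no gene or several and were left out. The protocol describes no molecular identifiers, and PCR copies may be among the counts. A deposited table holds the authors' DESeq2 1.10.1 comparison, with a mean normalised count (signal), log2 fold changes, a Wald score and raw and adjusted p-values, per the file headers and the submitters' processing notes.

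Symbols were matched for 46488 of 46983 gene identifiers; positions and exon lengths are from GENCODE M21 on GRCm38. Genes were filtered with filterByExpr (minimum count 10, total 15), scaled by TMM and compared by the robust quasi-likelihood test of edgeR 4.0.16 in R 4.3.3, 2-sided, with Benjamini-Hochberg adjustment over 16851 genes at 0.05. The script was tested on simulated data. A prior count of 2 entered log2 CPM. Errors (±) are SD for levels and standard errors for log2 differences. Ratios were tested with 2-sided exact permutation (SciPy 1.17.1). Alternatives used DESeq2 1.42.0, limma 3.58.1, other scalings, filters and strands, a replicate block, a sex term (sex read from Xist and Y-linked genes) and leaving out each library. The rule for named genes took all 8 transporters, genes past the threshold in each list (otherwise the 2 with the smallest p), and the 5 genes nearest to any transporter that passed. Members and lists were chosen with earlier results of these data known.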

Additional observations from a re-analysis of the deposited data

How the results depend on the processing

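Slc1a4 kept its direction and its call in all 14 alternatives, and no other transporter passed in any. The count of genes past the threshold was 40 higher and 7 lower with DESeq2 and 55 higher and 16 lower with no filter on low counts, and with a sex term 5 were lower. Leaving out 1 library gave 3 (without WT replicate 3) to 20 higher (without Slc7a5-KO replicate 1) and 0 to 3 lower. Slc7a10 changed sign with a sex term (0.0022) and spanned -0.14 to 0.12 over the fits with 1 library fewer. Slc38a2 changed sign with limma-voom (-0.0008) and a sex term (-0.0227), and leaving out 1 library gave -0.10 to 0.17. For Slc38a3 that range was -0.0501 to 0.18. Over the same fits Slc1a5 ran from 0.21 to 1.35, Slc38a5 from 0.08 to 0.87, Slc38a1 from 0.11 to 0.28 and Slc6a9 from 0.0149 to 0.25. With a sex term Slc6a9 was 0.23, and Slc38a5, on chromosome X, was 0.48. With limma-voom Slc1a5 was 0.38 and Slc38a5 0.32. The difference in log2 ratio ran from -0.20 to 0.86 for Slc1a4 to Slc1a5, -0.26 to -0.10 for Slc38a2 to Slc38a1 and 0.12 to 0.57 for Slc38a5 to Slc38a3. Shares of the summed TPM depended on length: with the longest transcript Slc1a4 held 7.84%, Slc7a10 12.1% and Slc38a1 26.6%. Counts of both strands gave Slc38a1 20.2%, Slc38a3 23.4% and Slc6a9 10.2%, against 17.3%, 20.0% and 19.4% on the gene strand.

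Replicate numbers did not pair the samples: deviations of same-numbered libraries correlated at -0.04, -0.06 and -0.03, and no library correlated best with its own number. With a replicate block the Slc1a4 log2 value was 1.02 (edgeR adjusted p = 0.015), and 6 genes were higher and 0 lower. Slc1a5 and Slc38a5 had 41 to 162 reads per library.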

Other observations

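Genes that make, break and sense the D-serine and glycine carried by Slc1a4, Slc7a10 and Slc6a9 were looked at after their values were seen. Srr, the racemase that makes D-serine, had 96.4, 81.1 and 85.7 CPM in libraries labelled Slc7a5-KO and 81.3, 85.2 and 85.1 CPM in WT (log2 0.07 ± 0.13, edgeR adjusted p = 0.98). Dao, the D-amino acid oxidase that breaks it down in cerebellar glia, had 67.4, 68.7 and 64.7 CPM in libraries labelled Slc7a5-KO, against 94.2, 104 and 81.0 CPM in WT. The Dao groups did not overlap, and the log2 difference of -0.48 ± 0.14 did not pass (edgeR adjusted p = 0.47, unadjusted p = 0.0028). Phgdh and Psph, of serine synthesis, had log2 values of 0.74 ± 0.19 and 0.76 ± 0.20 (edgeR adjusted p = 0.29 for each). Of 13 glycine and NMDA receptor genes, none passed, with a median of 0.04. Grin1, the subunit that binds glycine or D-serine, had 303, 304 and 299.7 CPM in libraries labelled Slc7a5-KO, against 228, 264 and 214 CPM in WT (log2 0.36 ± 0.12, edgeR adjusted p = 0.62). Gphn, which anchors glycine receptors, had -0.29 ± 0.18 (edgeR adjusted p = 0.88).

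Exons of Slc6a9 overlap those of Ccdc24 and B4galt2 on the other strand, and exons of Slc7a10 overlap those of Lrp3. Counted without strand, Slc6a9 held 44.0% to 46.5% and Slc7a10 74.0% to 81.5% of the reads counted on their own strand, while Slc1a4, Slc38a3 and Slc38a5 held 100.0% in every library.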
